A study of Mus musculus with 16 samples.

Results

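Transcripts of 10 non-collagen matrix genes were examined in sorted mouse pancreatic cancer cells, out of 24467 genes in each library. The genes were listed with earlier results of these data known, so their counts beside those of all genes are only a description. They were the matrix glycoproteins Tnc, Fn1, Postn, Sparc, Spp1 and Thbs1, the lysyl oxidases Lox, Loxl1 and Loxl2, and the fibronectin receptor chain Itga5. The data were bulk RNA sequencing of KPC cells, a mouse pancreatic ductal adenocarcinoma (PDAC) line, that carried 7TCF-eGFP and Porcn-DMA and were grown as tumours in the mouse pancreas. 7TCF-eGFP puts green fluorescent protein under TCF binding sites and so reports TCF-driven transcription. What Porcn-DMA is made of is not stated in the sources used here. Cells of dissociated tumours were sorted by flow cytometry into DP (positive for both reporters), mScarlet, GFP and DN (negative for both), as 4 libraries a group from 4 mice. The study describes WNT-responsive, WNT-secreting, double-positive and double-negative cells. No label says in words which of these the mScarlet gate holds. All 4 groups share the line and both constructs, so each is a model of 1 engineered line, and no group holds cells without the constructs.

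Fibronectin (Fn1) is assembled into fibrils by cells that hold it through the integrin of alpha 5 (Itga5) and beta 1 chains. Tenascin C (Tnc), periostin (Postn), SPARC, osteopontin (Spp1) and thrombospondin 1 (Thbs1) are matricellular proteins, which bind matrix and cell receptors without building the main scaffold. Lysyl oxidases (Lox, Loxl1, Loxl2) oxidise lysines of collagen and elastin so that the chains crosslink. In pancreatic cancer this matrix is abundant, and both fibroblasts and cancer cells are known to contribute to it.

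Most of these transcripts were lower in mScarlet-positive than in mScarlet-negative cells. In the contrast of the mean of DP and mScarlet against the mean of GFP and DN, 6 of the 10 genes fell at an adjusted p under 0.05: Tnc, Fn1, Itga5, Lox, Loxl1 and Loxl2. No member was called higher. Of all 15963 genes tested with edgeR's quasi-likelihood test, 5.21% were called lower in this contrast. The median log2 fold change of the 10 genes was -2.03, against -0.02 over all genes tested. With the library number of the labels as a block, 8 of the 10 were called lower, beside 7.73% of all genes, and Sparc and Thbs1 were the added calls. Without GFP libraries 1 and 4, which held the most transcripts of macrophages and fibroblasts, 5 of the 10 were called lower, beside 2.35% of all genes, and Lox was the call lost.

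**Figure D1:**
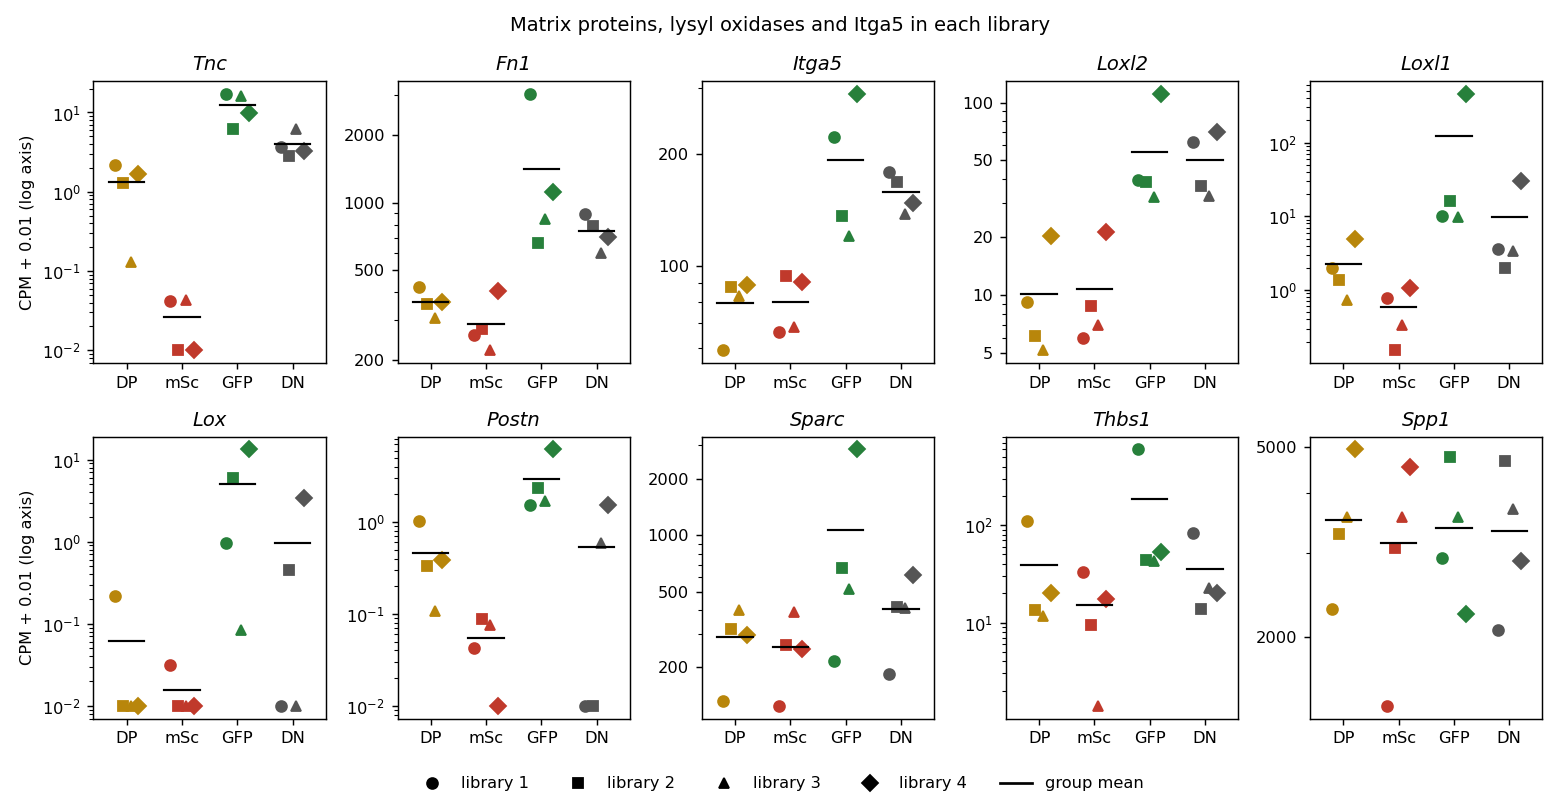
Level of each of the 10 genes in each library, as CPM plus 0.01 on a log axis, for the DP, mScarlet (mSc), GFP and DN groups. Symbols are library numbers and bars are group means; Tnc, Fn1, Itga5 and Loxl2 show no overlap between the 8 mScarlet-positive and the 8 mScarlet-negative libraries, and Spp1 overlaps in all groups.

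Levels are given in CPM, counts scaled to a common TMM-adjusted library total. Total counts per library ran from 80647185 to 104273669, and a count of 3 was worth 0.0288 to 0.0372 CPM. The sorted cells carried keratin transcripts (Krt19 averaged 10298 CPM in DP, 12522 in mScarlet, 8337 in GFP and 8321 in DN) and Cdh1, but Epcam, another epithelial marker, averaged 0.230 CPM in DP, 0.119 in mScarlet, 7.37 in GFP and 0.229 in DN. The GFP mean of Epcam came almost wholly from 1 GFP library, at 28.98 CPM. For 7 of 8 other cell types the highest marker sum was in a GFP library, and for platelets it was in DP library 4. GFP library 4 had the highest fibroblast (11714 CPM summed over 15 markers), mural and acinar sums, and GFP library 1 the highest macrophage (25225 CPM over 13 markers), endothelial, lymphocyte and erythroid sums. In bulk samples, fewer cells of a type and less RNA per cell cannot be told apart.

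Tnc, the hexameric glycoprotein of remodelled matrix, had the largest log2 fold change with mScarlet of the members other than Lox, under all settings tried. Its level was 2.17, 1.29, 0.121 and 1.68 CPM in DP libraries 1 to 4, and 0.0323, 0, 0.0333 and 0 CPM in mScarlet libraries. GFP libraries had 17.2, 6.15, 16.2 and 9.96 CPM, and DN libraries 3.70, 2.83, 6.17 and 3.25 CPM. The 4 mScarlet libraries thus held 6 Tnc counts in all, against 1535 counts in the 4 DN libraries, and no DP or mScarlet library reached the lowest DN library. Summed over libraries, Tnc was 231-fold lower in mScarlet than in DN (95% exact binomial interval for counting error only, 106 to 632). The call in mScarlet against DN (-7.77 on the log2 scale, SE 0.99, edgeR adjusted p = 0.0022) was lower in mScarlet, where 0.695% of all genes were called lower. Fitted values for Tnc that draw on the mScarlet libraries, at 6 counts in all, depend on the prior count and are no bound. In DP against GFP its log2 fold change was -3.23 (SE 0.76, adjusted p = 0.061). It was called there with the library number as a block (adjusted p = 0.033) and without GFP library 2 (adjusted p = 0.047), and the adjusted p ran from 0.00011 with DESeq2 to 0.33 without GFP libraries 1 and 4. Over all libraries it fell by 5.50 on the log2 scale (SE 0.62, adjusted p = 0.00027), and it was called in this contrast under all 23 alternatives.

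Fn1 and its receptor chain Itga5 separated by mScarlet at much higher levels. Fn1 had 423, 355, 307 and 362 CPM in DP libraries and 259, 274, 221 and 405 CPM in mScarlet libraries. It had 3049, 663, 845 and 1114 CPM in GFP libraries and 894, 791, 597 and 702 CPM in DN libraries. Every mScarlet-positive library was below every mScarlet-negative library, and GFP library 1, with the highest macrophage sum, was the highest of all. Fn1 fell by 1.67 on the log2 scale with mScarlet (SE 0.26, edgeR adjusted p = 0.0017), a 3.18-fold difference. The log2 fold change without GFP libraries 1 and 4 was -1.22 (SE 0.14, adjusted p = 0.00059).

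Itga5 pairs with the beta 1 chain to bind fibronectin. It had 59.3, 87.5, 83.02 and 88.5 CPM in DP libraries and 66.3, 94.0, 68.5 and 90.6 CPM in mScarlet libraries. GFP libraries had 222, 136, 120.4 and 290.0 CPM, and DN libraries 179, 168, 138 and 148 CPM. The mScarlet-positive and mScarlet-negative libraries did not overlap, and the DP and mScarlet means differed by less than the SD within each group (79.6 ± 13.8 and 79.9 ± 14.5 CPM, SD, n = 4). Itga5 fell by 1.13 on the log2 scale with mScarlet (SE 0.17, edgeR adjusted p = 0.0012). The gene for the beta 1 chain, Itgb1, was not called in this contrast, nor was any other matrix receptor on a list of 25 except Itgb6.

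Of the lysyl oxidases, Loxl2 separated cleanly. It had 9.15, 6.07, 5.14 and 20.2 CPM in DP libraries and 5.99, 8.79, 6.94 and 21.2 CPM in mScarlet libraries. It had 39.5, 38.6, 32.3 and 111 CPM in GFP libraries and 62.0, 36.9, 32.6 and 70.5 CPM in DN libraries. The highest DP and mScarlet values, both in library 4, stayed below the lowest value of GFP and DN. Loxl2 fell by 2.34 on the log2 scale with mScarlet (SE 0.39, edgeR adjusted p = 0.0023). The value without GFP libraries 1 and 4 was -2.02 (SE 0.37, adjusted p = 0.0072). Tnc, Fn1, Itga5 and Loxl2 were the 4 members whose 8 mScarlet-positive libraries all lay below the 8 mScarlet-negative ones, an order found for 1.03% of all genes tested.

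Loxl1, known for its role in elastic fibre assembly, depended more on single libraries. It had 1.99, 1.35, 0.726 and 4.98 CPM in DP libraries and 0.765, 0.142, 0.321 and 1.05 CPM in mScarlet libraries, against 10.0, 16.2, 9.86 and 459 CPM in GFP libraries and 3.55, 1.98, 3.41 and 30.1 CPM in DN libraries. The libraries numbered 4 were the highest of every group, and DP library 4 exceeded DN libraries 1 to 3. Its log2 fold change with mScarlet was -4.93 (SE 1.06, edgeR adjusted p = 0.013) in all libraries and -3.31 (SE 0.69, adjusted p = 0.016) without GFP libraries 1 and 4. With limma's voom the adjusted p was 0.22.

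Lox, the founding member of the enzyme family, was near the floor. Its only DP and mScarlet counts were in library 1 of each group (19 counts, 0.206 CPM, and 2 counts, 0.0215 CPM). GFP libraries had 0.948, 5.89, 0.0737 and 13.3 CPM, and DN libraries 0, 0.443, 0 and 3.38 CPM. Summed counts put Lox 88.6-fold lower in DP than in GFP (95% interval for counting error, 56.6 to 148) and 171-fold lower in mScarlet than in DN (47.0 to 1417). It was called lower with mScarlet (edgeR adjusted p = 0.023), and the fitted log2 fold change of -6.83 (SE 1.72) is no bound, because it depends on the prior count. The call was lost without any 1 of DP libraries 2 and 3, mScarlet libraries 1 to 3 or DN library 4 (adjusted p = 0.051 to 0.061), without GFP libraries 1 and 4 together (adjusted p = 0.057), and with limma's voom (adjusted p = 0.17).

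**Figure D2:**
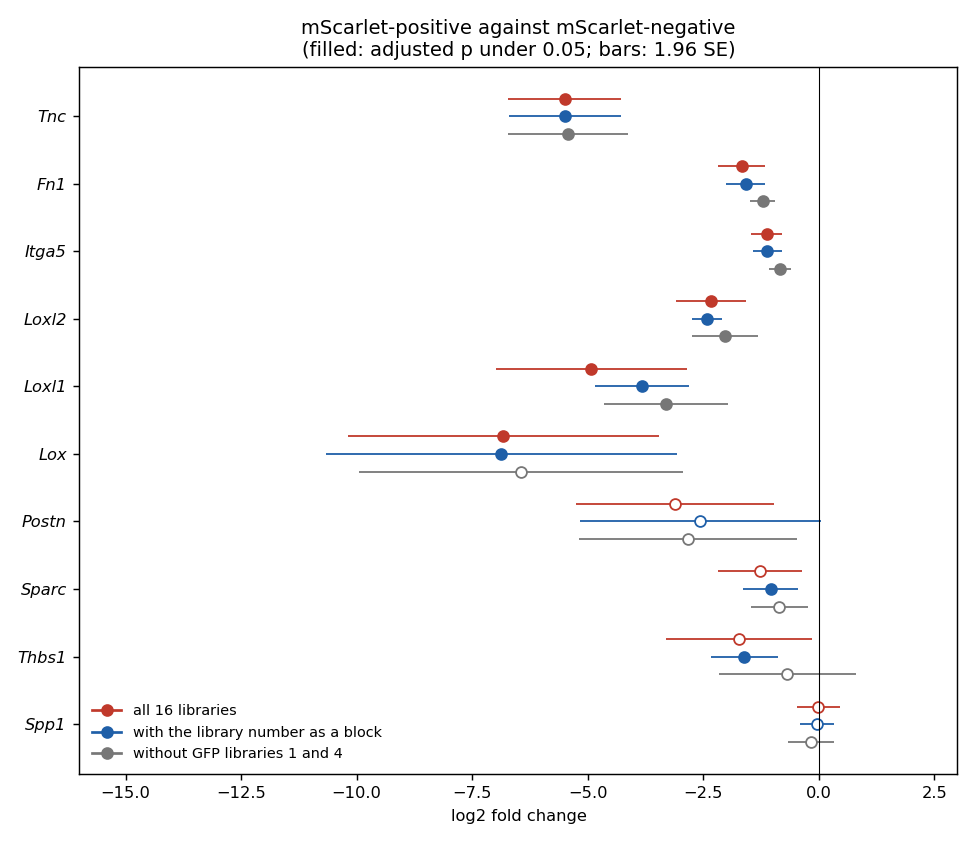
Log2 fold change of each gene in mScarlet-positive (DP and mScarlet) against mScarlet-negative (GFP and DN) cells, with approximate 95% intervals. The 3 settings are all 16 libraries, the library number as a block, and leaving out GFP libraries 1 and 4. Filled points have an adjusted p under 0.05; Tnc, Fn1, Itga5, Loxl1 and Loxl2 are filled under all 3 settings, and Spp1 lies at -0.01 in all libraries.

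The other 4 genes were not called in this contrast. Postn, a matricellular protein of fibroblasts, had 1.03, 0.326, 0.0968 and 0.372 CPM in DP libraries and 0.0323, 0.0777, 0.0665 and 0 CPM in mScarlet libraries. It had 1.53, 2.32, 1.71 and 6.17 CPM in GFP libraries and 0, 0, 0.586 and 1.53 CPM in DN libraries, so that every DP value lay within the range of DN. Its log2 fold change with mScarlet was -3.11 (SE 1.09, edgeR adjusted p = 0.087), and DESeq2 called it (-3.17, adjusted p = 0.0129).

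Sparc, a collagen-binding protein, had 133, 319.9, 402 and 296 CPM in DP libraries and 125, 262, 394 and 249 CPM in mScarlet libraries. It had 215, 668, 518 and 2857 CPM in GFP libraries and 185, 417, 413 and 615 CPM in DN libraries. Library 1 was the lowest of each group, and at every library number both mScarlet-positive values lay below both mScarlet-negative ones. The log2 fold change with mScarlet was -1.28 (SE 0.47, edgeR adjusted p = 0.11), and it was called with the library number as a block (log2 fold change -1.04, adjusted p = 0.041).

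Thbs1, an activator of latent TGF-beta, had 111, 13.5, 11.6 and 20.2 CPM in DP libraries and 32.7, 9.37, 1.39 and 17.5 CPM in mScarlet libraries. GFP libraries had 601, 44.0, 42.9 and 53.0 CPM, and DN libraries 83.8, 13.8, 22.5 and 20.2 CPM. Library 1 was the highest of every group. The log2 fold change with mScarlet was -1.72 (SE 0.81, edgeR adjusted p = 0.21), and with the block -1.62 (adjusted p = 0.013). Without GFP libraries 1 and 4 it was -0.68 (adjusted p = 0.71).

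Spp1, the secreted phosphoprotein osteopontin, had nearly equal group means: 3519 ± 1094 CPM in DP, 3149 ± 1296 in mScarlet, 3370.0 ± 1077 in GFP and 3327 ± 1118 in DN (SD, n = 4). Library 1 was the lowest in DP, mScarlet and DN (2287, 1431 and 2063 CPM), and library 4 was the lowest in GFP (2229.9 CPM). The log2 fold change with mScarlet was -0.01 with an approximate 95% interval of -0.47 to 0.46 (edgeR adjusted p = 0.99).

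The pairs of gates that differ in mScarlet gave fewer calls than the contrast over all libraries. In mScarlet against DN, Tnc was the 1 member called of 10, and all 10 had a negative log2 fold change (median -1.80). With the library number as a block, 5 members were called (Tnc, Fn1, Itga5, Loxl1 and Loxl2), beside 2.9% of all genes. The same 5 were called without GFP libraries 1 and 4, which are not in this comparison but enter its estimate of spread, beside 1.83% of all genes. Fn1 had a log2 fold change of -1.37 (SE 0.37, edgeR adjusted p = 0.085), Itga5 -0.99 (SE 0.24, adjusted p = 0.058) and Loxl2 -2.23 (SE 0.54, adjusted p = 0.06). Single libraries moved these calls: Fn1 was called without GFP library 1 (adjusted p = 0.00305), Itga5 without GFP library 1, 3 or 4 (adjusted p = 0.0202 to 0.0458), Loxl1 without GFP library 4 (adjusted p = 0.0413) and Loxl2 without library 4 of DP, mScarlet or GFP (adjusted p = 0.0189 to 0.0364).

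In DP against GFP, 2 members were called lower, beside 0.363% of all genes: Fn1 (-1.97 on the log2 scale, SE 0.37, edgeR adjusted p = 0.035) and Itga5 (-1.27, SE 0.24, adjusted p = 0.035). With the block the calls were Tnc, Fn1, Itga5, Loxl1 and Loxl2, beside 2.96% of all genes. Without GFP libraries 1 and 4 no member was called, beside 1 of all 17368 genes tested (0.00576%), Fn1 having a log2 fold change of -1.05 (adjusted p = 0.21) and Itga5 -0.68 (adjusted p = 0.33). Both calls were also lost when the fit held only the DP and GFP libraries (adjusted p = 0.196), and without any 1 of DP libraries 1 to 3, mScarlet library 2, GFP libraries 1 or 4, or DN libraries 2 or 4 (adjusted p = 0.0501 to 0.141). Fn1 was lost without DP library 4 as well (adjusted p = 0.057), and Loxl2 was called without library 4 of DP or mScarlet or without GFP library 2 or 3 (adjusted p = 0.0331 to 0.0473). The comparisons of DP with GFP and of mScarlet with DN share no library. They use the same library numbers, however, and so are not independent. Tnc, Fn1, Itga5, Loxl1, Loxl2, Sparc and Thbs1 were lower at each of the 4 library numbers in both. The share of all genes with this order was not counted.

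The remaining pairs of groups were compared in the same way. In mScarlet against GFP all 10 log2 fold changes were negative, and in DP against DN 8 of 10 were. In mScarlet against GFP, 5 members were called lower, beside 1.06% of all genes: Tnc (log2 fold change -9.41, SE 1.04, edgeR adjusted p = 0.0018), Fn1 (-2.29, SE 0.38, adjusted p = 0.017), Itga5 (-1.26, SE 0.24, adjusted p = 0.027), Loxl1 (-7.75, SE 1.70, adjusted p = 0.041) and Loxl2 (-2.37, SE 0.55, adjusted p = 0.043). With the block, Lox, Sparc and Thbs1 were called as well, 8 in all, beside 4.44% of all genes. Without GFP libraries 1 and 4, or in a fit of the mScarlet and GFP libraries alone, Tnc was the 1 call left, beside 2 of all genes in each of these fits (0.0115% without GFP libraries 1 and 4). Among fits without 1 library, Tnc was called in all, Fn1 was lost without mScarlet library 1, 2 or 3 (adjusted p = 0.0672 to 0.0783), and Itga5 without those or GFP library 4 (adjusted p = 0.0528 to 0.102). Loxl1 was lost without any 1 library of DP or mScarlet, GFP library 1 or 4, or DN library 3 (adjusted p = 0.0515 to 0.134), its log2 fold change being -4.39 without GFP library 4, and Loxl2 without DP library 1 or 2, mScarlet library 1, 2 or 3, GFP library 1 or 4, or any 1 library of DN (adjusted p = 0.0509 to 0.136). In DP against DN, Itga5 (log2 fold change -0.99, SE 0.24, adjusted p = 0.041) and Loxl2 (-2.32, SE 0.54, adjusted p = 0.037) were called lower, beside 1.71% of all genes. These 2 calls were each lost without single libraries, Itga5 without any 1 library of DP or DN or of mScarlet libraries 1 to 3 (adjusted p = 0.0503 to 0.151), and Loxl2 without DP libraries 1 to 3, mScarlet library 2 or DN libraries 1, 2 or 4 (adjusted p = 0.0536 to 0.138). Fn1 was called without GFP library 1 (adjusted p = 0.00927).

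Tnc had the largest log2 fold change of the 10 genes with the GFP gate, without a call, except that Postn was larger with limma's voom (4.27, against 3.75 for Tnc) and Lox was larger without DN library 4. In the contrast of the mean of DP and GFP against the mean of mScarlet and DN, edgeR called 0 members and 0% of all genes, while 1551 genes had an unadjusted p under 0.05 and DESeq2 called 323. Comparisons of DP with mScarlet and of GFP with DN share no library, but use the same library numbers and so are not independent. Tnc was higher at all 4 library numbers in both. Its log2 fold change over both was 3.90 (SE 0.59, edgeR adjusted p = 0.078), called with the library number as a block (3.94, adjusted p = 0.014), where 0.457% of all genes were called higher, and without DP library 3 (adjusted p = 0.0055), GFP library 2 (adjusted p = 0.039) or GFP library 4 (adjusted p = 0.03). Over the alternatives the adjusted p ran from 1.61e-09 with DESeq2 to 0.40 with limma's voom.

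By summed counts, Tnc was 78.8-fold higher in DP than in mScarlet (95% interval for counting error, 35.9 to 216) and 3.17-fold higher in GFP than in DN (2.99 to 3.36). The mScarlet libraries held 6 Tnc counts in all. The fitted values in DP against mScarlet and in the interaction therefore depend on the prior count and are no bound. The fitted log2 fold change was 6.18 in DP against mScarlet (SE 0.94, edgeR adjusted p = 0.10), called without DP library 3 (adjusted p = 0.00615), and 1.63 in GFP against DN (SE 0.71, adjusted p = 0.49). The interaction, which asks whether the GFP difference is the same on both mScarlet backgrounds, was 4.54 (SE 1.12, unadjusted p = 0.00092, edgeR adjusted p = 1, DESeq2 adjusted p = 0.021). In each of these 3 comparisons edgeR called 0% of all genes; 460 genes in DP against mScarlet, 1551 in GFP against DN and 525 in the interaction had an unadjusted p under 0.05, and DESeq2 called 50, 246 and 39.

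None of the other members was called in a GFP comparison, with or without the block. In GFP against DN all 10 log2 fold changes were positive (median 1.51), with Loxl1 at 3.67 (SE 1.39, edgeR adjusted p = 0.47) and Thbs1 at 2.40 (SE 1.17, adjusted p = 0.53). Without GFP libraries 1 and 4 these values were 0.42 and 0.29, and those of Fn1, Itga5 and Loxl2 were -0.00, -0.32 and -0.53. In DP against mScarlet, Itga5 (-0.01, approximate 95% interval -0.47 to 0.46) and Loxl2 (-0.08, -1.10 to 0.94) lay near 0. Postn was higher at all 4 library numbers in both comparisons, with log2 fold changes of 3.34 (SE 1.58) in DP against mScarlet and 2.47 (SE 1.49) in GFP against DN, neither called. Tnc, Loxl1, Sparc and Thbs1 were also higher at all 4 in both, and the share of all genes with this order was not counted.

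**Figure D3:**
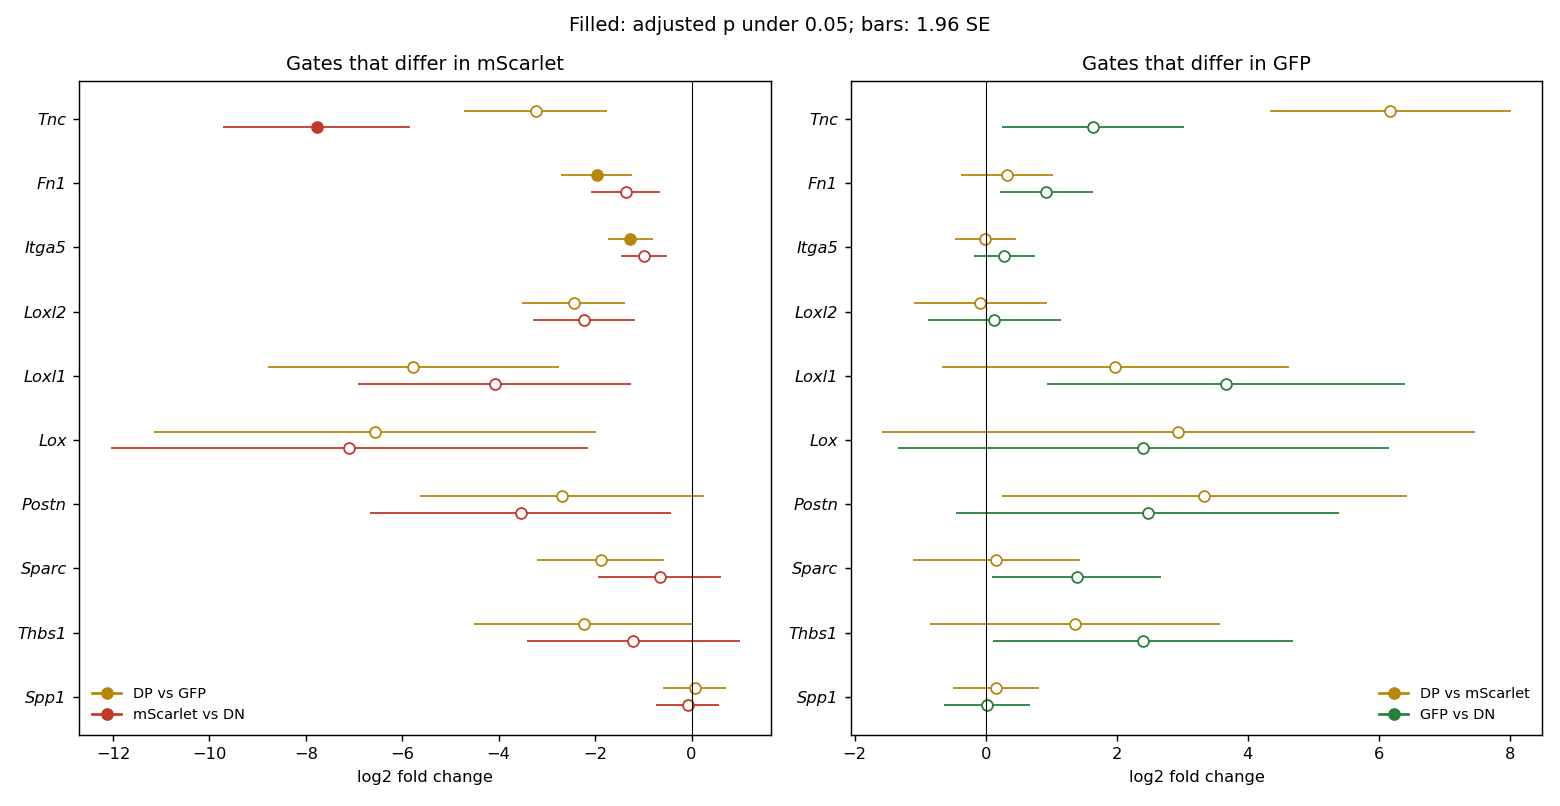
Log2 fold changes with approximate 95% intervals for pairs of gates. Those on the left differ in mScarlet (DP vs GFP, mScarlet vs DN) and those on the right in GFP (DP vs mScarlet, GFP vs DN). Filled points have an adjusted p under 0.05; Tnc is the gene farthest from 0 in DP against mScarlet, at 6.18.

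Levels between the genes were compared per kilobase of exon (GENCODE vM21). Spp1 was the most abundant in every group, with group means from 1911 to 2135 CPM per kilobase. Sparc followed, at 76.0 in DP, 67.9 in mScarlet, 281 in GFP and 108 in DN, then Fn1, at 31.0 in DP, 24.8 in mScarlet, 121 in GFP and 63.9 in DN. Itga5 came next, at 16.1 in DP, 16.2 in mScarlet, 38.9 in GFP and 32.1 CPM per kilobase in DN. In GFP, Sparc and Fn1 overlapped between libraries (56.7 to 754 and 56.8 to 261 CPM per kilobase), as did Itga5 and Thbs1 (24.4 to 58.8 and 7.06 to 98.9). Below these, mean levels were 2.51 to 30.5 for Thbs1, 1.88 to 10.2 for Loxl2 and 0.173 to 37.5 for Loxl1. In GFP the Loxl1 mean was above that of Thbs1. The GFP libraries ran from 2.99 to 139 CPM per kilobase for Loxl1, overlapping Sparc, Fn1, Itga5, Thbs1 and Loxl2. Tnc, Lox and Postn were the scarcest, with highest group means of 1.59, 1.06 and 0.337 CPM per kilobase, all in GFP.

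Other genes of the matrix, from 4 lists also chosen with earlier results known, were counted in the contrast of mScarlet-positive against mScarlet-negative cells. Among 34 other matrix glycoproteins, 10 were called lower and none higher, with a median log2 fold change of -1.83, against -0.02 for all genes, of which 5.21% were called lower. With the library number as a block 15 were called lower, beside 7.73% of all genes, and without GFP libraries 1 and 4, 7 (median -1.21), beside 2.35%, Mfap4 being among the calls lost (adjusted p = 0.16). They included the elastic fibre genes Eln (-5.46, SE 0.99, edgeR adjusted p = 0.0054), Mfap4 (-5.57, SE 1.53, adjusted p = 0.039) and Fbn1 (-4.41, SE 1.02, adjusted p = 0.018), and Fstl1, a secreted BMP-binding protein (-4.10, SE 0.84, adjusted p = 0.0098). The levels behind these calls were uneven, Eln averaging 2.38 ± 0.92 CPM in DP and 1.53 ± 0.71 in mScarlet, against 256 ± 456 in GFP and 27.5 ± 37.0 in DN (SD, n = 4).

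Of 16 genes of matrix crosslinking and collagen processing, 7 were called lower and 1 higher (median -0.73), beside 5.21% and 3.52% of all genes. When GFP libraries 1 and 4 were left out, 4 were called lower and 1 higher (median -0.31), beside 2.35% and 1.57%, and the calls of Loxl3 (adjusted p = 0.115) and Crtap (adjusted p = 0.0847) were among those lost. Loxl3 (-2.34, SE 0.59, edgeR adjusted p = 0.025) is a further lysyl oxidase, P4ha2 (-1.64, SE 0.26, adjusted p = 0.0018) a prolyl hydroxylase of collagen, Bmp1 (-1.37, SE 0.28, adjusted p = 0.0086) a procollagen proteinase, and Crtap (-1.15, SE 0.28, adjusted p = 0.02) part of a prolyl hydroxylase complex. The 1 call in the other direction was Loxl4, the remaining lysyl oxidase, at 32.4 ± 9.37 CPM in DP, 46.7 ± 17.4 in mScarlet, 16.2 ± 1.76 in GFP and 23.3 ± 7.06 in DN (SD, n = 4). Its log2 fold change was 1.00 (SE 0.21, adjusted p = 0.0094). It was called in mScarlet against GFP too (1.53, SE 0.31, adjusted p = 0.028). P4ha2 was also called lower in mScarlet against DN (-1.77, adjusted p = 0.033), in mScarlet against GFP (-1.67, adjusted p = 0.039) and in DP against DN (-1.61, adjusted p = 0.033), and Bmp1 in DP against GFP (-2.02, adjusted p = 0.041) and in mScarlet against GFP (-1.78, adjusted p = 0.041).

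Of 14 basement membrane genes, 4 were called lower and 1 higher (median -0.30), beside 5.21% of all genes called lower and 3.52% called higher. The counts were 2 lower and 1 higher with the block (7.73% and 6.66% of all genes), and 2 lower and none higher without GFP libraries 1 and 4 (2.35% and 1.57%). The laminin chain genes Lama4 (-3.15, SE 0.88, edgeR adjusted p = 0.037) and Lamb1 (-0.76, SE 0.12, adjusted p = 0.0018) and the nidogen gene Nid1 (-2.02, SE 0.44, adjusted p = 0.013) were lower, and the laminin-332 chain gene Lamb3 was higher (0.62, SE 0.19, adjusted p = 0.049). Lama4 was not called with the block (adjusted p = 0.098), and neither Lama4 (adjusted p = 0.205) nor Lamb3 (adjusted p = 0.184) was called without GFP libraries 1 and 4. Lamb1 was called lower in mScarlet against DN (-0.78, adjusted p = 0.043) and in mScarlet against GFP (-0.96, adjusted p = 0.022) as well. Of 25 matrix receptors, 1 was called, Itgb6, the epithelial integrin chain that activates TGF-beta, which was higher (1.00, SE 0.27, adjusted p = 0.029), and the list's median was -0.00. With the block 3 receptors were called higher and 1 lower, beside 6.66% and 7.73% of all genes, and without GFP libraries 1 and 4 none was called (Itgb6, adjusted p = 0.114). In mScarlet against GFP, 6 other matrix glycoproteins were called lower, beside 1.06% of all genes. Among them were Eln (-7.39, adjusted p = 0.037), Fbn1 (-7.21, adjusted p = 0.047), Fstl1 (-5.61, adjusted p = 0.047) and Bgn (-5.49, adjusted p = 0.041). In DP against GFP 1 was called lower, Fbln1 (-4.85, adjusted p = 0.0499), beside 0.363% of all genes. With the block these glycoprotein counts were 13 in mScarlet against GFP (4.44% of all genes) and 10 in DP against GFP (2.96%). Without GFP libraries 1 and 4 both were 0 (0.0115% and 0.00576% of all genes). No gene of the 4 lists was called by edgeR in GFP against DN or in DP against mScarlet.

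**Figure D4:**
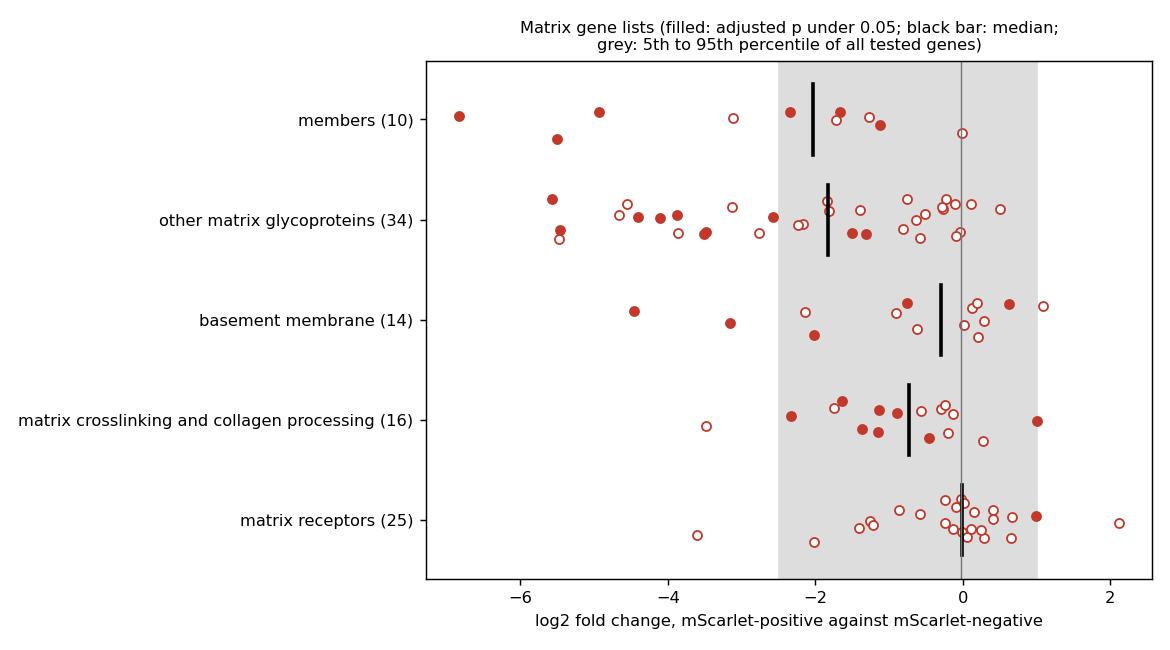
Log2 fold change in mScarlet-positive against mScarlet-negative cells of the 10 genes and of each gene of the 4 matrix lists. Filled points have an adjusted p under 0.05, black bars are list medians, and the grey band spans the 5th to 95th percentile of all 15963 genes; the medians are -2.03 for the 10 genes, -1.83 for other glycoproteins, -0.30 for basement membrane, -0.73 for crosslinking and -0.00 for receptors.

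Markers of other cell types moved with several of these results. The summed level of 15 fibroblast markers was 34.97 to 304 CPM in DP and 19.6 to 95.7 in mScarlet, against 678 to 11714 in GFP and 146 to 1658 in DN. Of the 14 markers tested, 9 were called lower with mScarlet by edgeR (median log2 fold change -4.32), beside 5.21% of all genes. The count was 11 with the block, beside 7.73%, and 5 without GFP libraries 1 and 4 (median -3.37), beside 2.35%. Gli1 was at 0 in 13 of the 16 libraries, while Col1a1, Col1a2, Col3a1, Dcn and Mmp2 had counts in all. Lox, Loxl1, Loxl2, Itga5, Postn and Sparc were highest in GFP library 4, the library with the highest fibroblast sum. Within DN, library 4 had the highest fibroblast sum, and Lox, Loxl1, Loxl2, Postn and Sparc were highest there. Within DP it was library 4 too, and Itga5, Loxl1, Loxl2 and Spp1 were highest in it. Within mScarlet it was library 1, where Lox and Thbs1 were highest. Of the 4 groups, Lox, Loxl1 and Loxl2 thus peaked with the fibroblast sum in 3, and Itga5, Postn and Sparc in 2. Spp1 and Thbs1 did so in 1, and Fn1 and Tnc in 0. For Lox the match in mScarlet rests on 2 counts in library 1, under the floor, with the other mScarlet libraries at 0. Same-numbered libraries were alike across groups, so matches in several groups are not independent, and the share of all genes with them was not counted. The part of fibroblast transcripts in these results was not tested.

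The summed level of 13 macrophage markers was 2263 to 6548 CPM in DP and 1286 to 2329 in mScarlet, against 1060 to 25225 in GFP and 971 to 3643 in DN, and none of the 13 was called with mScarlet. Cd14 was the largest part of the mean sum in DP (1340 CPM), mScarlet (1188) and DN (937), and averaged 1350 in GFP. Lyz2 varied more, at 1289 in DP, 172 in mScarlet, 3201 in GFP and 404 in DN. Over the 13 markers the median log2 fold change was -0.85 in mScarlet against DN and 1.61 in DP against DN, with none called. The macrophage sum was highest in library 1 in DP, GFP and DN but in library 4 in mScarlet. Fn1 was highest in the library with the highest macrophage sum in all 4 groups, Thbs1 in DP, GFP and DN, and Tnc in DP and GFP. These matches, too, are not independent between groups, and the share of all genes with them was not counted. Platelets also carry Thbs1, and the sum of 5 platelet markers was 19.1 to 121 CPM in DP, 9.32 to 31.8 in mScarlet, 18.7 to 97.6 in GFP and 9.19 to 14.9 in DN, with Gp1bb at 0 in 15 libraries. The sum of 10 endothelial markers was 11.9 to 14.7 CPM in DP, 9.85 to 13.2 in mScarlet, 11.7 to 60.02 in GFP and 20.7 to 32.1 in DN, and that of 6 mural markers was 5.17 to 12.9 CPM in DP, 4.86 to 9.70 in mScarlet, 13.4 to 67.8 in GFP and 4.83 to 12.0 in DN. Acinar sums (8 markers) reached 144 CPM in DP, 1103 in mScarlet, 20889 in GFP and 654 in DN. Erythroid sums (3 markers) reached 607 CPM in DP, 204 in mScarlet, 4528 in GFP and 278 in DN, and lymphocyte sums (8 markers) 22.02 CPM in DP, 14.2 in mScarlet, 40.6 in GFP and 34.2 in DN. No platelet, endothelial, mural, acinar, erythroid or lymphocyte marker was called with mScarlet. With the block 1 endothelial and 1 macrophage marker were called lower, beside 7.73% of all genes. The part of these cell types in the results was not tested. Of 9 ductal epithelial markers, 2 were called higher with mScarlet and none lower, against 3 higher with the block and none without GFP libraries 1 and 4. The shares of all genes called higher in these fits were 3.52%, 6.66% and 1.57%.

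**Figure D5:**
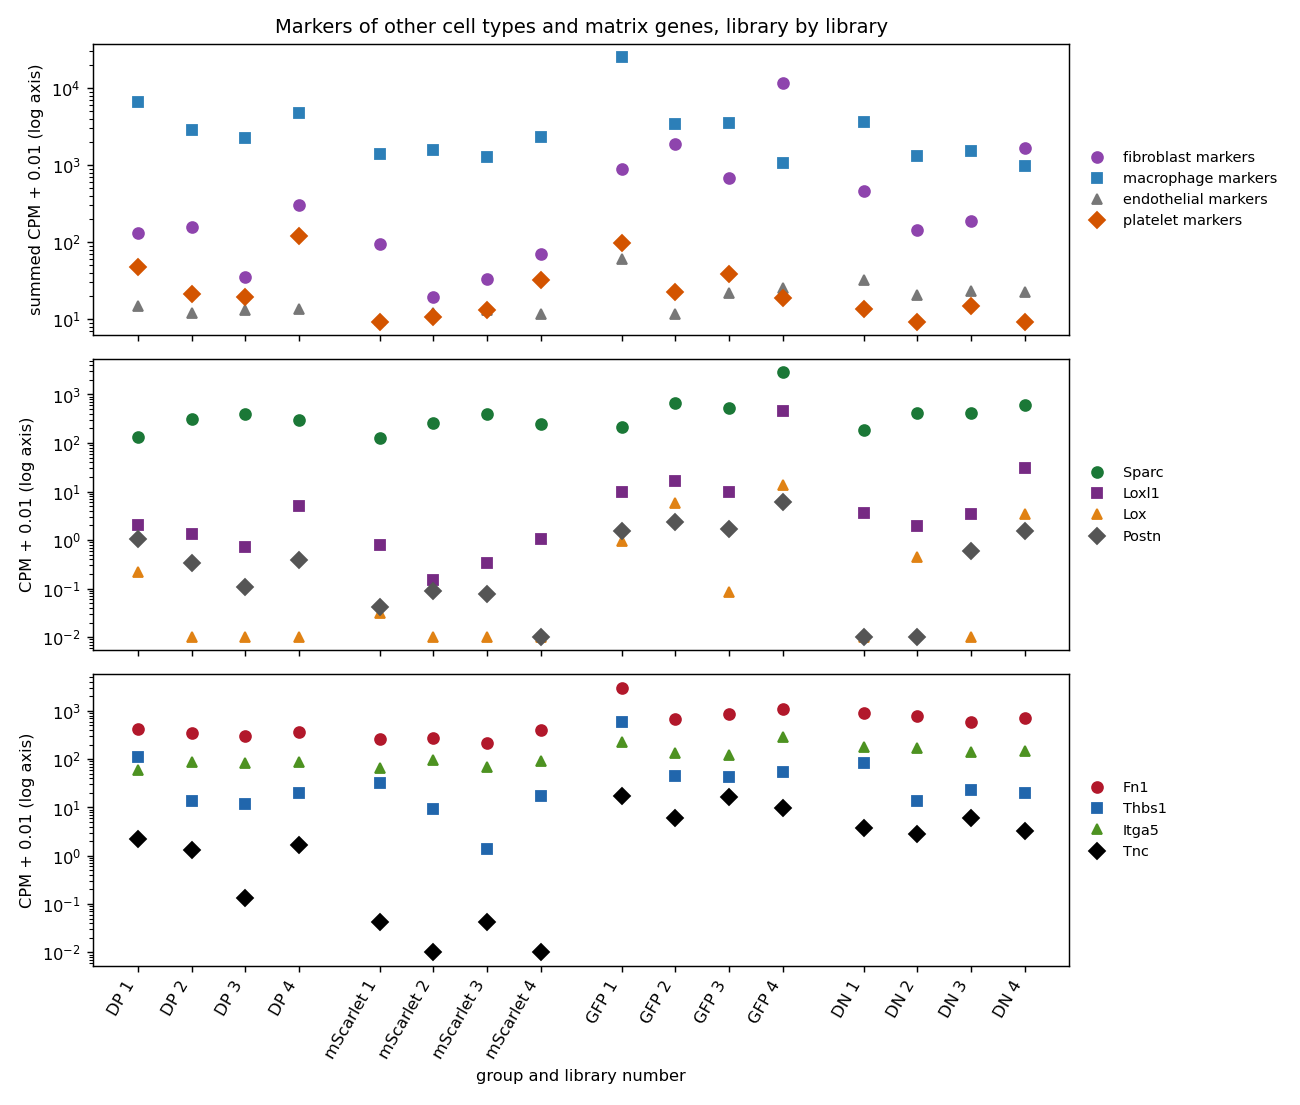
Summed markers of other cell types (top) and the levels of 8 of the genes (middle and bottom) in each library, as CPM plus 0.01 on log axes, for DP, mScarlet, GFP and DN libraries 1 to 4. GFP library 4 has the highest fibroblast sum (11714 CPM) and the highest Loxl1 (459 CPM), and GFP library 1 has the highest macrophage sum (25225 CPM) and the highest Fn1 (3049 CPM).

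The genes with the most similar pattern over the 16 libraries were found by Pearson's r of log2(CPM + 1), given here as a description, since the libraries share groups and library numbers. Tnc was most like Nrarp (r = 0.90), Cdh15 (0.87) and Spon1 (0.86). Fn1 was most like Axl (0.94), St6galnac4 (0.93) and Timp2 (0.91), and Itga5 like Ntmt1 (0.95), Tuba1a (0.94) and Tspan4 (0.93). Lox was most like Gdf10 (0.96), Fxyd6 (0.95) and Dpep1 (0.94). Loxl1 was most like Bgn (0.98), Serpina3n (0.98) and Serping1 (0.98), and Loxl2 like Htra1 (0.97), Angptl2 (0.97), which overlaps Ralgps1, and Olfml2b (0.97).

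Postn was most like Col14a1 (0.95), Gpx3 (0.94) and Itm2a (0.94), and Sparc like Igfbp7 (0.94), Vwa1 (0.93) and Spon2 (0.92). Thbs1 was most like Cyth4 (0.93), Pycard (0.92) and Plekho1 (0.91). Spp1 had the lowest likeness, with Igsf5 (0.83), 9130401M01Rik (0.82) and Cadm1 (0.79). Among the members themselves, Loxl1 and Postn (0.92), Lox and Loxl1 (0.89), Itga5 and Loxl2 (0.89) and Tnc and Fn1 (0.88) were the closest pairs, and Spp1 had an r of -0.35 to 0.23 with the other 9.

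RefSeq promoter windows, of 250 bases before to 50 bases after a transcript start, were given for 5 of the 10 genes, in 8 windows. They are printed for Tnc and Itga5, which fell with mScarlet, and for Spp1, whose group means were nearly equal (GRCm38.p6, 5′ to 3′ on the gene's strand, capitals marking TATAAA).
Tnc, chr4:64046966-64047265, minus strand: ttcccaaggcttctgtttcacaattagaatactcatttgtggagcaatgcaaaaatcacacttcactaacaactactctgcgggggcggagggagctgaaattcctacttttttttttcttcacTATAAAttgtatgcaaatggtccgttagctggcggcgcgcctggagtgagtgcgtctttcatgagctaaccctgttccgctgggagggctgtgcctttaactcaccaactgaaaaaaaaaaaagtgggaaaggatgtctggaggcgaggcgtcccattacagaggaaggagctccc
Itga5, chr15:103366742-103367041, minus strand: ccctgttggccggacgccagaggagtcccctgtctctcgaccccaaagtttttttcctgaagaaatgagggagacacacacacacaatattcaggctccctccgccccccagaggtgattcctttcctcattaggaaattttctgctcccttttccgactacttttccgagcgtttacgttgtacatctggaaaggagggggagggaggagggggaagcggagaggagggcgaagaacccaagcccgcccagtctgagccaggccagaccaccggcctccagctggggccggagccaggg
Spp1, chr5:104434861-104435160, plus strand: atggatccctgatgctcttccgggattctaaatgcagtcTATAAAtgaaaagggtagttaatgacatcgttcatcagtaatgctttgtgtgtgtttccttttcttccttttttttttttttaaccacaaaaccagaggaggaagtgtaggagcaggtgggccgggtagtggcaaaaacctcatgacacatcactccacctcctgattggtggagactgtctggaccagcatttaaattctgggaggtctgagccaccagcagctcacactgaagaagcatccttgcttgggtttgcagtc

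On both strands of the 8 windows, the AP-1 motif TGANTCA, the TEAD motif GGAATG and the TCF/LEF motif TCAAAG had no match, and 7.81%, 14.7% and 16% of all 32851 windows held them. TATAAA, held by 13.6% of all windows, was found at positions -126 to -121 of the Tnc window shown and -211 to -206 of the Spp1 window, counted from the transcript start, and in a window of Postn at -26 to -21. The same Tnc match lies at -205 to -200 of its second window, and the Itga5 and Sparc windows held none.

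The genes lie on chromosome 4 (Tnc, 63959785 to 64047015), 1 (Fn1, 71585473 to 71653280), 15 (Itga5, 103344286 to 103366791), 18 (Lox, 52516060 to 52529867), 9 (Loxl1, 58287723 to 58313212), 14 (Loxl2, 69608692 to 69695834), 3 (Postn, 54359267 to 54391041), 11 (Sparc, 55394159 to 55420080), 5 (Spp1, 104435111 to 104441053) and 2 (Thbs1, 118111876 to 118127133) of GRCm38.p6. Tnc, Itga5, Loxl2 and Postn overlap other annotated genes, and of these Mir6963 inside Itga5 held 28 counts in all, against 27161 or more Itga5 counts in each group.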

How the data were processed

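The deposited files hold raw counts, 1 whole number for each Entrez gene identifier, as their values show. The submitters' processing notes name STAR, DESeq2 1.24.0 and the build GRCm38 (mm10), without their roles. No source used here gives the counter, its annotation or its strand setting, so reads of overlapping genes cannot be told apart. Per the labels' protocols, cDNA of the sorted cells was amplified by PCR before library preparation, so counting intervals and floors cover counting error only. Of 24467 identifiers, 24437 had a symbol in RefSeq's gene table, and all 10 members had counts and passed the low-count filter.

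In R 4.3.3, edgeR 4.0.16 fitted all 16 libraries together on group alone (quasi-likelihood test, robust moderation), on the 15963 genes left by its filter by group, scaled by TMM. A gene was called where its Benjamini-Hochberg adjusted p over all of them was under 0.05. The SE given for edgeR is the absolute log2 fold change over the square root of the test's F. Its 95% intervals are a normal multiple of that SE, so they are approximate and can be narrower than the test implies. DESeq2 1.42.0 and limma 3.58.1 (voom) were alternatives. The members and all gene lists (4 of matrix genes, 9 of cell type markers) were chosen with earlier results of these data known. Counts over the lists with the library number as a block and without GFP libraries 1 and 4 were added after seeing the data. From each matrix list, at most 4 called genes per comparison are named, by size of fold change among those averaging 5 CPM or more in the higher group, and genes like a member are its 3 best by r at 5 CPM or more. The labels do not say whether libraries of the same number came from 1 mouse. Deviations from the group means correlated between all 24 same-numbered pairs (r = 0.111 to 0.707), against -0.505 to 0.269 for 72 other pairs. The numbers were therefore taken to pair the samples in the block fits and the comparisons by library number. The main fit on group alone left this pairing out. No replicates agreed within sampling noise (lowest chi-square per degree of freedom 91.8).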

Additional observations from a re-analysis of the deposited data

Results flagged for a closer look

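Of 40 sets of 4 libraries (10 genes in 4 groups), 10 held a library far from the other 3 by Dixon's test. The test's rate of about 1 in 20 by chance holds for normal values in independent sets. These were unlogged CPM of genes that share libraries, so that rate is no yardstick here. Library 4 stood apart for Loxl1 in GFP (459 CPM, the next highest 16.2) and in DN (30.1 CPM, next 3.55), for Loxl2 in GFP (111 CPM, next 39.5), for Postn in GFP (6.17 CPM, next 2.32) and for Lox in DN (3.38 CPM, next 0.443). Library 1 stood apart for Thbs1 in DP (111 CPM, next 20.2), in GFP (601 CPM, next 53.0) and in DN (83.8 CPM, next 22.5). The remaining 2 sets were Lox in DP library 1 (0.206 CPM) and in mScarlet library 1 (0.0215 CPM, 2 counts, under the floor of 3), where the other 3 libraries were at 0, so that any count would have stood apart, and the test says nothing there.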

How the results depend on the processing

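Among the 10 genes, the number called kept within 1.5 times of the value given under RLE scaling, under no robust moderation of the dispersions (chosen after seeing the data) and under the settings not named here. In mScarlet against DN it was 1, but 4 with DESeq2, 2 with limma's voom, 5 with the replicate block, 5 without GFP libraries 1 and 4, 4 with the libraries compared alone, and 1 to 4 without 1 library. In DP against GFP it was 2, but 4 with DESeq2, 5 with the block, 0 without GFP libraries 1 and 4, 0 with the libraries compared alone, and 0 to 4 without 1 library. In DP against DN it was 2, but 1 without the low-count filter and 0 to 3 without 1 library. In mScarlet against GFP it was 5, but 3 without the filter, 8 with the block, 1 without GFP libraries 1 and 4, 1 with the libraries compared alone, and 1 to 5 without 1 library. In DP against mScarlet it was 0, but 1 without the filter, 1 with DESeq2 and 0 to 1 without 1 library. In the contrast over GFP it was 0, but 1 without the filter, 1 with DESeq2, 1 with the block and 0 to 1 without 1 library. In the interaction it was 0, but 1 with DESeq2, and in the contrast over mScarlet it was 6, and 5 to 6 without 1 library. The cause of these moves was not tested. The replicate block changed no call of a member other than those printed with the comparisons.

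Over all genes, the calls in mScarlet against DN were 188, but 808 with DESeq2, 865 with the block, 580 without GFP libraries 1 and 4, 343 with the libraries compared alone, and 17 to 362 without 1 library. In DP against GFP they were 90, but 137 with RLE scaling, 1005 with DESeq2, 813 with the block, 1 without GFP libraries 1 and 4, 1 with the libraries compared alone, and 1 to 297 without 1 library. In DP against DN they were 371, but 1020 with DESeq2, 1017 with the block, 761 without GFP libraries 1 and 4, 578 with the libraries compared alone, and 105 to 532 without 1 library. In mScarlet against GFP they were 245, but 141 without the filter, 1523 with DESeq2, 147 with voom, 1190 with the block, 2 without GFP libraries 1 and 4, 2 with the libraries compared alone, and 6 to 524 without 1 library. In GFP against DN they were 0, but 246 with DESeq2, 1 with voom, 11 with the block and 0 to 2 without 1 library. In DP against mScarlet they were 0, but 50 with DESeq2, 1 without the filter and 0 to 1 without 1 library. With mScarlet they were 1393, but 2338 with DESeq2, 2297 with the block, 681 without GFP libraries 1 and 4, and 861 to 1640 without 1 library. With GFP they were 0, but 323 with DESeq2, 80 with the block, 1 without the filter, 2 without GFP libraries 1 and 4, and 0 to 5 without 1 library. In the interaction they were 0, but 39 with DESeq2.

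Directions turned for the following uncalled values. In DP against DN, Postn had -0.21, but 2.34 with voom, 0.44 with the block and -0.99 to 1.22 without 1 library, and Thbs1 had 0.16, but -0.13 with voom, -0.24 with the block and -1.22 to 1.04 without 1 library. In GFP against DN, Loxl2 had 0.13, but -0.001 with voom, -0.02 with the block, -0.53 without GFP libraries 1 and 4 and -0.48 to 0.32 without 1 library. Itga5 had 0.28, but -0.32 without GFP libraries 1 and 4 and -0.019 to 0.437 without 1 library, and Fn1 had 0.93, but -0.004 without GFP libraries 1 and 4. In DP against mScarlet, Itga5 had -0.005, but 0.004 without the filter and without GFP libraries 1 and 4, 0.007 with the block and with the libraries compared alone, and -0.085 to 0.113 without 1 library. Without 1 library, values there ran from -2.31 to 5.24 for Lox, -0.66 to 0.49 for Loxl2, -0.071 to 0.444 for Sparc and -0.012 to 2.06 for Thbs1. In the contrast over GFP, Itga5 had 0.14, but -0.16 without GFP libraries 1 and 4 and -0.007 to 0.22 without 1 library, and Loxl2 had 0.03, but -0.044 with voom, -0.074 with the block, -0.30 without GFP libraries 1 and 4 and -0.27 to 0.32 without 1 library. Without 1 library, Spp1 ran from -0.32 to 0.14 in mScarlet against DN, -0.17 to 0.29 in DP against GFP (-0.24 without GFP libraries 1 and 4), -0.15 to 0.27 in DP against DN, -0.34 to 0.13 in mScarlet against GFP, -0.22 to 0.23 in GFP against DN, -0.079 to 0.386 in DP against mScarlet, -0.14 to 0.10 with mScarlet and -0.031 to 0.201 with GFP. Depth limits Lox, Postn and Tnc, which had libraries at 0 counts.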
